A study of Mus musculus with 12 samples.

Results

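Ubd, Acod1, Calhm6 and Nos2 are 4 genes of inflammatory effector proteins that were described over 4 groups of mouse livers, 4 of the 18193 genes with a probe set of a single symbol on the array. They were chosen by measured values of these same arrays, by name and for their pattern over the groups, so their group differences are given as a description with no test. For each gene the probe set with the highest mean over the 12 arrays was used, and each of the 4 has only 1 probe set with a single symbol. Of the 4, 3 lay above the filter on low values, which kept 12760 genes for testing. Nos2 lay below it, with a mean log2 level of 4.87 against a limit of 5.25, and its values are given apart from the genes tested. Acod1 passed the filter only through TGFB KO, with a mean log2 level of 9.85 there. Its means in wild type, INFko TGFB+ and IFNko TGFB1 KO were 4.93, 4.17 and 4.77, each under the limit. Its ranks among the genes tested rest on that 1 high group. The mean of Calhm6 in INFko TGFB+, 5.06, also lay under the limit.

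The arrays hold total RNA of whole liver from BALB/c mice, 3 mice in each group. Wild type mice are littermate controls with intact Tgfb1, the gene of the cytokine transforming growth factor beta 1. TGFB KO mice lack Tgfb1. INFko TGFB+ mice, spelled as in the labels, lack Ifng, the gene of the cytokine interferon gamma, and keep Tgfb1, with the number of intact copies not given in the sources used here. IFNko TGFB1 KO mice lack both genes. The labels name no agent given to the mice, both deletions are in every cell of the animal, and ages were not given in the sources used here. The replicates are separate mice per the study design, and INFko TGFB+ has no number on 1 of its arrays, which took the number left over. Every array had been scaled to the same trimmed mean signal of 150.001. Median signals were 33.8 to 42.6, except 61.3 on the array IFNko TGFB1 KO 1, whose rank correlations with the other arrays were 0.754 to 0.809. Where a fit without this array was run, results that it moves are given with and without it.

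Interferon gamma is released by T cells and natural killer cells and binds a receptor that acts through JAK kinases, STAT factors and, in a later step, interferon regulatory factors (IRF). In the liver its targets are induced in hepatocytes, Kupffer cells, which are the resident macrophages, and infiltrating macrophages. Ubd encodes FAT10, a ubiquitin-like modifier that is joined to other proteins and marks them for the proteasome. Acod1 encodes the mitochondrial enzyme that makes itaconate from cis-aconitate, an intermediate of the tricarboxylic acid cycle. Calhm6 encodes a member of the calcium homeostasis modulator family of large-pore channels and is found in macrophages. Nos2 encodes the inducible nitric oxide synthase, which makes nitric oxide from arginine.

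The upstream sequences of the members are shown because the 3 genes found in the promoter table share a stretch of letters. Of the 4 genes, 3 have an entry in the RefSeq promoter table of build GRCm38.p6 (250 bases before to 50 after the annotated start), and Nos2 has none. The 120 bases before the start are printed 5′ to 3′ on the strand of the gene, at chr17:37193772-37193891 (plus strand) for Ubd, chr14:103046892-103047011 (plus strand) for Acod1 and chr10:34127973-34128092 (minus strand) for Calhm6. Capitals mark the motifs that were found.
Ubd: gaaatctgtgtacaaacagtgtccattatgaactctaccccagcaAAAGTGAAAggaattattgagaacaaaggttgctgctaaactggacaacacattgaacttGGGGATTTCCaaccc
Acod1: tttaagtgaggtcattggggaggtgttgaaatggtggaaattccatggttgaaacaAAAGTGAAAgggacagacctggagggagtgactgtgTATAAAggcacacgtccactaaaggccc
Calhm6: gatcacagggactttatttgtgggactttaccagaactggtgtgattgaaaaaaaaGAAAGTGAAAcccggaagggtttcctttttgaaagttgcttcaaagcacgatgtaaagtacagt

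All 3 windows hold AAAGTGAAA on the strand of the gene, at bases -75 to -67 in Ubd, -64 to -56 in Acod1 and -63 to -55 in Calhm6, counted from the annotated start. These letters resemble those that interferon regulatory factors bind, but they were picked after these 3 promoters had been read, so their presence in all 3 is no test. They stood, on either strand, in 195 of 32851 promoters of the table (0.594%) and in 192 of 27025 genes (0.71%). The interferon response core GAAANNGAA was found in Calhm6 alone of the 3, at -64 to -56, where it overlaps the shared stretch, against 8.56% of all promoters. The TATA box letters TATAAA stood in Acod1 at -28 to -23, against 13.6% of all promoters. The NF-kappaB consensus was matched in Ubd at -15 to -6, against 8.46%. The letters of a gamma-activated site, TTCNNNGAA, which 8.30% of all promoters hold, were not in any of the 3 windows. Both strands were searched over the 300 bases for every motif.

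**Figure D1:**
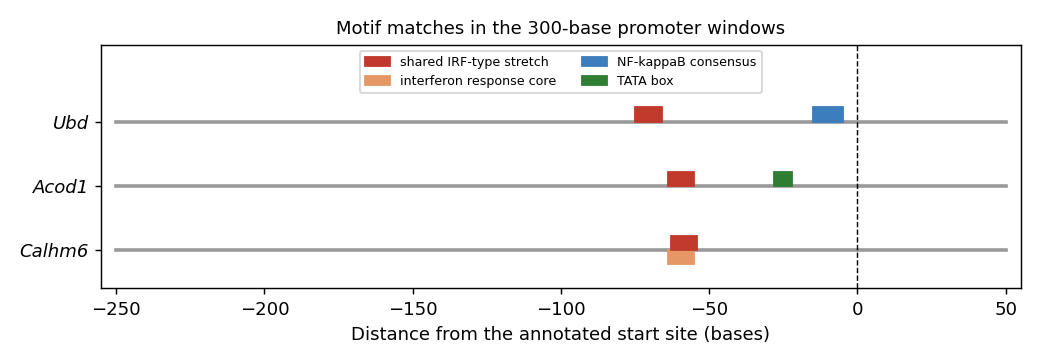
Motif matches in the 300-base promoter windows of Ubd, Acod1 and Calhm6, by distance in bases from the annotated start (dashed line). The shared stretch (red) lies between bases -75 and -55 in all 3, while the NF-kappaB consensus (blue) is in Ubd, the TATA box (green) in Acod1 and the interferon response core (orange) in Calhm6.

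The same letters were counted in the promoters of other genes. Of 20 classical interferon gamma target genes with a promoter in the table, 12 hold the interferon response core (60%, against 9.76% of all genes). Of the same 20, 6 hold the letters of a gamma-activated site (30%, against 9.55%) and 3 the shared stretch, namely Gbp2, Gbp2b and Cxcl10. In the other lists the shared stretch stood in Ncf1, Uba7, Birc3 and Tlr3. Of 11 macrophage and Kupffer cell markers, 2 hold the core and 0 the shared stretch. A match is a match of letters, and no binding was measured.

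Ubd was higher in each TGFB KO liver than in any liver of the other groups. Its signal was 6493, 6754.5 and 5484 in the TGFB KO livers against 211, 49.5 and 46.8 in wild type. In the IFNko TGFB1 KO livers it was 201, 133 and 196, and in INFko TGFB+ it was 18.6, 20.0 and 30.3. The INFko TGFB+ arrays were the lowest. In RNA of whole liver, fewer cells of a type and less RNA per cell cannot be told apart, here and in the values that follow. From the highest group to the lowest, the mean was 6244 ± 671 (SD, n = 3) for TGFB KO, 177 ± 37.7 for IFNko TGFB1 KO, 102 ± 93.9 for wild type and 23.0 ± 6.36 for INFko TGFB+. Neighbours overlap only between IFNko TGFB1 KO and wild type, where replicate 1 of wild type lies above all 3 arrays lacking both genes. Overlap was not counted over all genes, so it only describes the members, here and in the paragraphs that follow.

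The signal of Acod1 was 1065, 702 and 1009 in TGFB KO and 64.4, 1.92 and 3.31 in wild type. It was 31.9, 11.01 and 3.36 in IFNko TGFB1 KO and 1.47, 1.85 and 1.26 in INFko TGFB+. The TGFB KO arrays again stood clear of the rest, and in wild type a single liver, replicate 1, was above the other two. Means were 925 ± 196 (SD, n = 3) in TGFB KO, 23.2 ± 35.7 in wild type, 15.4 ± 14.8 in IFNko TGFB1 KO and 1.53 ± 0.30 in INFko TGFB+. Wild type and IFNko TGFB1 KO overlap, and INFko TGFB+ lies below both groups, with a narrow gap of 1.85 to 1.92 to the lowest wild type array. The mean log2 levels of these groups lie under the filter on low values, so that gap is not read as a difference.

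Calhm6 gave 1142, 1105 and 1257 in TGFB KO. Its signal was 121, 184 and 156 in IFNko TGFB1 KO, 57.0, 2.96 and 43.0 in wild type, and 10.3, 19.9 and 17.2 in INFko TGFB+. Here, unlike in Ubd and Acod1, the 3 livers without both genes lay above all 3 wild type livers. Means were 1168 ± 79.3 (SD, n = 3) in TGFB KO, 154 ± 31.95 in IFNko TGFB1 KO, 34.3 ± 28.04 in wild type and 15.8 ± 4.92 in INFko TGFB+. The last 2 of these groups overlap, since replicate 2 of wild type is the lowest of the 12 arrays.

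Nos2 was dim on this array. Its signal was 120.2, 50.8 and 57.4 in TGFB KO, and in the other groups it did not pass 5.10 except on the array IFNko TGFB1 KO 1, with 23.6. The 2 other arrays of that group gave 1.30 and 2.53. Wild type gave 2.28, 2.44 and 5.10, and INFko TGFB+ gave 1.78, 1.70 and 3.44. Means were 76.1 ± 38.3 (SD, n = 3) in TGFB KO, 9.14 ± 12.5 in IFNko TGFB1 KO, 3.27 ± 1.58 in wild type and 2.31 ± 0.98 in INFko TGFB+, and the last 3 of these overlap.

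**Figure D2:**
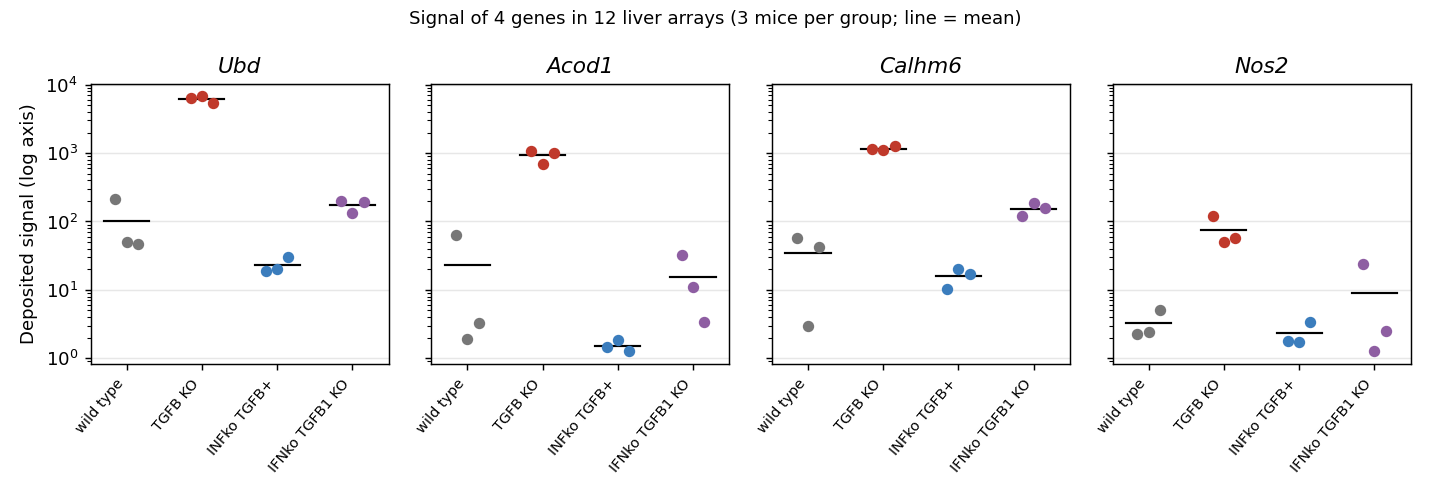
Deposited signal of Ubd, Acod1, Calhm6 and Nos2 (vertical log axis) on each of the 12 liver arrays, by group; a point is 1 mouse and a line is the group mean. For each gene the 3 TGFB KO arrays lie above all others, and IFNko TGFB1 KO arrays of Calhm6 lie above wild type while those of Ubd, Acod1 and Nos2 overlap it. Levels of different genes come from different probes and are not to be compared.

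The loss of Tgfb1 was compared first with Ifng intact, TGFB KO against wild type, on quantile-normalized log2(signal + 16), a scale that understates the changes of dim genes. Ubd was 5.89 ± 0.41 (log2, SE) higher, Acod1 4.92 ± 0.47, Calhm6 4.76 ± 0.41 and Nos2 2.21 ± 0.27. The order of Ubd and Acod1 turned with a pseudocount of 1 in place of 16, at 6.16 and 6.57. Among the 12760 genes tested the differences ranked 2 (Ubd), 5 (Acod1) and 7 (Calhm6) from the highest. Without replicate 1 of wild type the differences became 6.50 for Ubd and 5.61 for Acod1, and without replicate 2 that of Calhm6 became 4.15. Over all genes, 1553 rose (12.2%) and 1524 fell (11.9%) at a limma adjusted p under 0.05, a split of 1448 and 893 when each array was centred on its median instead.

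In livers lacking both genes, compared with TGFB KO, all 4 members were lower, with differences of -5.08 ± 0.47 (log2, SE) for Acod1, -5.05 ± 0.41 for Ubd, -2.96 ± 0.41 for Calhm6 and -2.02 ± 0.27 for Nos2. From the lowest of 12760 genes, Acod1 ranked 2, Ubd 3 and Calhm6 31. The mean signal in IFNko TGFB1 KO was 1.67% of that in TGFB KO for Acod1, 2.83% for Ubd, 12.01% for Nos2 and 13.2% for Calhm6. The percentages of Nos2 and Acod1 rest in part on the array IFNko TGFB1 KO 1. It gave 23.6 for Nos2, against 1.30 and 2.53 on the others, and 31.9 for Acod1, against 11.01 and 3.36. Both percentages are lower without it. Against wild type, the livers lacking both genes differed by -0.16 (log2) for Acod1, 0.18 for Nos2, 0.84 for Ubd and 1.79 for Calhm6. These differences were not fitted without single arrays. The sign for Acod1 rests on wild type 1, with a log2 level of 6.30. Wild type 2 and 3, at 4.17 and 4.32, lay below all IFNko TGFB1 KO arrays (4.33 to 5.19). Ubd was also highest in wild type 1 among the wild type livers, at 7.85 against 6.08 and 6.05. Over all genes 324 were higher (2.54%) and 360 lower (2.82%) at a limma adjusted p under 0.05, or 100 and 387 with median centring, which moved the median of all genes from 0.02 to -0.14. These 684 genes became 320 without TGFB KO 1, 350 without TGFB KO 2 and 429 without IFNko TGFB1 KO 1. Without the array IFNko TGFB1 KO 1 the differences were -5.18 for Ubd, -5.34 for Acod1, -2.77 for Calhm6 and -2.28 for Nos2. Of the genes tested, 5 had differences at least as large as those of Calhm6 in both comparisons, higher in the first and lower in the second: Acod1, Ubd, the chemokine gene Cxcl11, the MHC class II gene H2-Eb1 and the acute-phase gene Orm1. For Ubd and for Acod1 that number was 0. The members were chosen for their pattern over these same groups, so the ranks and these numbers only describe them.

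With Ifng absent from both sides, IFNko TGFB1 KO against INFko TGFB+, the loss of Tgfb1 went with smaller differences. Calhm6 was 2.18 ± 0.41 (log2, SE) higher, Ubd 2.13 ± 0.41, Acod1 0.59 ± 0.47 and Nos2 0.22 ± 0.27. These sizes move with the pseudocount, from 1.29 (pseudocount 64) to 2.92 (pseudocount 1) for Calhm6, 1.35 to 2.66 for Ubd, 0.20 to 1.91 for Acod1 and 0.08 to 0.60 for Nos2, and at both settings each was smaller than with Ifng intact. The arrays of both groups overlap for Nos2 alone of the members, and the share of all genes without overlap was not counted. The difference of Nos2 became -0.04 without the array IFNko TGFB1 KO 1 and 0.38 without IFNko TGFB1 KO 2. That of Acod1 became 0.38 without IFNko TGFB1 KO 1. From the highest, Calhm6 ranked 188, Ubd 200 and Acod1 2226. Over all genes 1618 rose (12.7%) and 1673 fell (13.1%), or 988 and 1864 with median centring, which moved the median of all genes from -0.01 to -0.15. The difference between both effects of Tgfb1 loss was -4.32 ± 0.66 (log2, SE) for Acod1, the rank 3 from the lowest, -3.77 ± 0.58 for Ubd (rank 6), -2.57 ± 0.59 for Calhm6 (rank 42) and -1.98 ± 0.39 for Nos2. Only 31 genes (0.243%) had a higher and 80 (0.627%) a lower effect at a limma adjusted p under 0.05, a split of 9 and 101 with median centring, under which the median of all genes was -0.25. These 111 genes became 69 without wild type 2, 58, 66 and 54 without TGFB KO 1, 2 and 3, and 63, 46 and 60 without INFko TGFB+ 1, 2 and 3. Without replicate 1 of wild type, the difference was -5.02 for Acod1 and -4.36 for Ubd, and without replicate 2 it was -1.96 for Calhm6. The members were chosen on the same arrays, so nothing is read from their place among these genes.

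**Figure D3:**
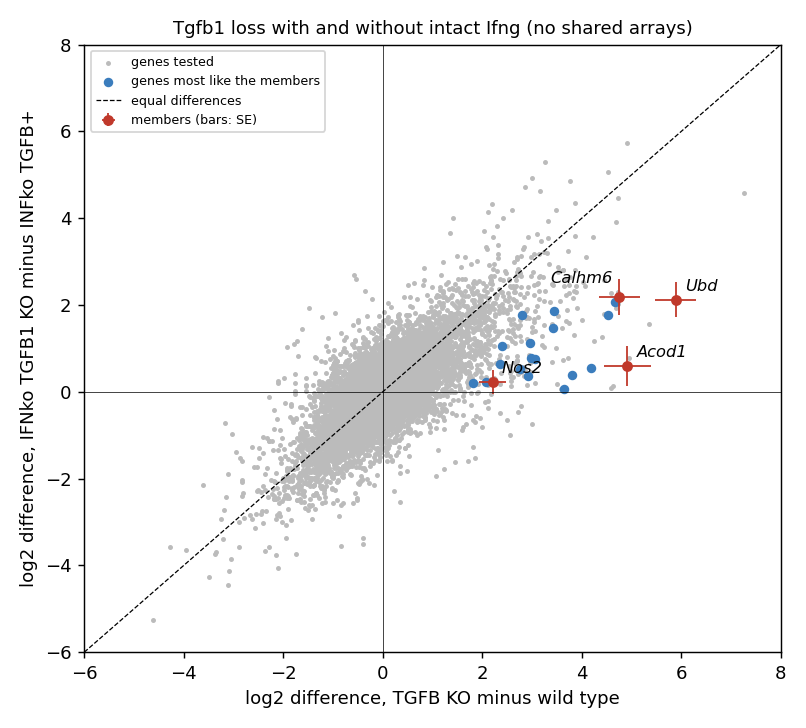
Log2 difference of IFNko TGFB1 KO minus INFko TGFB+ (vertical) against TGFB KO minus wild type (horizontal) for the 12760 genes tested (grey), the genes whose pattern is most like that of the members (blue) and the members (red, bars are SE); the pairs share no arrays. The members lie below the dashed line of equal differences, Acod1 at 4.92 and 0.59 and Calhm6 at 4.76 and 2.18.

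In mice with Tgfb1, the loss of Ifng alone was compared as INFko TGFB+ against wild type. The differences were -1.29 ± 0.41 (log2, SE) for Ubd, -0.76 ± 0.47 for Acod1, -0.39 ± 0.41 for Calhm6 and -0.04 ± 0.27 for Nos2. The arrays of both groups overlap for Calhm6 and Nos2. The difference of Ubd rests in part, and that of Acod1 mostly, on wild type 1, the wild type liver with their highest signals. Without it they were -0.70 and -0.07, and without wild type 2 that of Acod1 was -1.14. That of Calhm6 was -0.05, -0.99 and -0.13 without wild type 1, 2 and 3, and -0.23 without INFko TGFB+ 1. That of Nos2 ranged from -0.09 to 0.05 when 1 array was left out. In limma 0 of 12760 genes passed in either direction (0%), 650 had an unadjusted p under 0.05, and no other tool was run. Without wild type 2 or wild type 3, 2 genes passed, and 1 did without INFko TGFB+ 1.

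The targeted genes were measured on the same arrays. For Tgfb1 the wild type mean was 319 ± 184 (SD, n = 3), that of TGFB KO 68.1 ± 21.2, that of INFko TGFB+ 188 ± 29.5 and that of IFNko TGFB1 KO 40.2 ± 13.9. Wild type 3 gave 110, against 391 and 455 in wild type 1 and 2, and the highest TGFB KO array gave 87.6. Ifng gave means of 18.4 ± 10.8 in wild type, 127 ± 64.5 in TGFB KO, 5.36 ± 3.72 in INFko TGFB+ and 60.9 ± 20.5 in IFNko TGFB1 KO. Its probe set thus still gave signal in livers labelled as lacking it. The place of the probes relative to the disrupted part is not known here, and the Ifng signal therefore does not check the labels.

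Over the 12 arrays the members followed each other with Pearson correlations from 0.872 (Calhm6 and Nos2) to 0.972 (Ubd and Acod1), a description that largely repeats the 4 groups that the arrays share. The 5 genes most like each member were found by the same measure. For Ubd they were Cxcl10 (0.985), the gene of a chemokine that draws T cells, Ak7, the guanylate-binding protein genes Gbp3 and Gbp7, and Psmb8, a subunit of the immunoproteasome. For Acod1 they were Gbp7 (0.986), Gbp2, Gbp2b, Irf1 and Cxcl10. For Calhm6 they were the MHC class II genes H2-Ab1 (0.979) and H2-Ea, with Ctla2b, Irf8 and Ly86. For Nos2 they were Cxcl10 (0.969), Apol11b, Adamts4, Ero1a and Ifit2. The neighbours of Calhm6 were 1.48 to 2.07 (log2) higher in IFNko TGFB1 KO than in INFko TGFB+, and those of Acod1 0.23 to 0.78 higher. Irf8 lay at the lower end of the first range and Irf1 at that of the second. The neighbours were picked by likeness to each member over these arrays. Their differences therefore repeat those of the member and are no separate result.

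Genes of the interferon gamma pathway itself were read beside the members. Of the 17 receptor and JAK-STAT signalling genes tested, 13 rose and 0 fell in TGFB KO against wild type, with a median of 0.95 (log2) against -0.06 over all genes tested. In IFNko TGFB1 KO against TGFB KO 8 fell and 0 rose, with a median of -0.73 against 0.02. Irf1, a transcription factor induced by interferon gamma, rose by 2.07 ± 0.21 (limma adjusted p = 4.56e-05) and fell by 2.30 ± 0.21 (adjusted p = 0.000123) in the second comparison. Irf8, a factor of myeloid cells, rose by 3.43 ± 0.21 (limma adjusted p = 2.09e-06) and fell by 1.97 ± 0.21 (adjusted p = 0.000266). Socs1, a feedback inhibitor of JAK kinases, rose by 1.74 ± 0.27 and fell by 2.06 ± 0.27. The receptor genes Ifngr1 and Ifngr2 were among those that did not pass in the second comparison, at -0.07 and -0.16, and are named after their values were seen. The 8 calls became 3 without TGFB KO 1, 3 without TGFB KO 2 and 5 without IFNko TGFB1 KO 1. The difference of the effects of Tgfb1 loss without and with Ifng was called for Irf8 (-1.95 ± 0.29) and Irf1 (-1.85 ± 0.30), and that of Irf1 was lost without INFko TGFB+ 1 (adjusted p = 0.0553) or INFko TGFB+ 2 (0.0537).

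The classical target genes of interferon gamma rose in TGFB KO and fell in the livers lacking both genes against TGFB KO. All 21 tested rose in TGFB KO against wild type (median 2.96) and all 21 fell in IFNko TGFB1 KO against TGFB KO (median -3.31), also when any 1 array was left out. The chemokine gene Cxcl9 rose by 4.64 ± 0.29 and fell by 6.30 ± 0.29 (limma adjusted p = 5.96e-07). Gbp2 fell by 4.06 ± 0.18 in the second comparison, and Gbp2b rose by 4.19 ± 0.20 and fell by 4.30 ± 0.20. Irgm1, a GTPase of defence within cells, fell by 3.32 ± 0.16. In IFNko TGFB1 KO against INFko TGFB+ the list divided, with 8 genes that rose, among them H2-Aa (2.02 ± 0.31), and 5 that fell, among them Irgm1 (-1.27 ± 0.16) and Irgm2 (-1.60 ± 0.21), with Iigp1, Gbp6 and Igtp. In INFko TGFB+ against wild type 0 of 21 passed in limma, 10 had an unadjusted p under 0.05, and the median was -0.55. The difference of effects was lower for 15 of 21, with a median of -3.10 against 0.01 over all genes. The list was written with earlier results of these data known.

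For Ubd the genes of FAT10 conjugation and delivery were read beside it. Of the 7 tested, 0 passed in limma in any of the comparisons, with 1 at an unadjusted p under 0.05 in TGFB KO against wild type and 0 in the others that involve a mouse without Tgfb1. Uba6, the activating enzyme for FAT10, differed by -0.31 ± 0.25 in TGFB KO against wild type and by 0.23 ± 0.25 in IFNko TGFB1 KO against TGFB KO. Ube2z, its conjugating enzyme, differed by 0.14 ± 0.17 and -0.18 ± 0.17. The lowest p was that of Hdac6, a deacetylase that binds FAT10, at -0.77 ± 0.26 in TGFB KO against wild type (limma adjusted p = 0.0532). In that comparison 1 gene of the list passed without wild type 3, without TGFB KO 1 or without IFNko TGFB1 KO 1.

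Among genes of other ubiquitin-like modifiers, 4 of 13 rose in TGFB KO against wild type and 4 of 13 fell in IFNko TGFB1 KO against TGFB KO, with medians of 0.04 and -0.51. Herc6, a ligase for the modifier ISG15, rose by 1.81 ± 0.22 and fell by 2.27 ± 0.22 (limma adjusted p = 0.000163). Usp18, which removes ISG15, rose by 1.67 ± 0.25 and fell by 2.22 ± 0.25 (limma adjusted p = 0.000435). Uba7, the activating enzyme for ISG15, rose by 1.30 ± 0.20 and fell by 1.37 ± 0.20. Map1lc3b was the fourth gene that rose. Ube2l6, the conjugating enzyme for ISG15, fell by 1.92 ± 0.33 in the second comparison. The difference of effects was called for Herc6 (-2.46 ± 0.32) and Usp18 (-2.41 ± 0.35).

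Around Acod1, 7 of 26 genes of the tricarboxylic acid cycle and of itaconate handling fell and 0 rose in TGFB KO against wild type (median -0.32). The shares of all genes were 11.9% lower and 12.2% higher. Idh1, a cytosolic isocitrate dehydrogenase, fell by 1.17 ± 0.22 (limma adjusted p = 0.00257), and Sucla2 and Suclg2, subunits of succinyl-CoA ligase, fell by 0.88 ± 0.19 and 0.85 ± 0.19. Without TGFB KO 1 only 3 genes of the list passed. Of the same genes, 11 fell and 0 rose in IFNko TGFB1 KO against INFko TGFB+ (median -0.45), or 6 without INFko TGFB+ 2. The summed signal of 15 hepatocyte markers moved with these differences, from 252415 to 260956 per array in wild type against 178237 to 217918 in TGFB KO, and from 227830 to 274130 in INFko TGFB+ against 119587 to 207859 in IFNko TGFB1 KO. The part of the hepatocyte markers in the fall of the list was not tested. In IFNko TGFB1 KO against TGFB KO 0 of 26 passed in limma, 7 had an unadjusted p under 0.05, and the median was -0.10. There, 1 gene passed without TGFB KO 3, without IFNko TGFB1 KO 2 or without IFNko TGFB1 KO 3. Of 14 genes of the NRF2 response, which itaconate can activate, 6 rose and 3 fell (Nqo1, Gclc and Gclm) in TGFB KO against wild type. The shares of all genes were 12.2% higher and 11.9% lower. Hmox1, the gene of heme oxygenase 1, rose by 3.41 ± 0.32 (limma adjusted p = 2.61e-05) and differed by -0.84 ± 0.32 (adjusted p = 0.167) in the second comparison, in which 0 of 14 passed in limma and 3 had an unadjusted p under 0.05. The 9 calls of the first comparison became 5 without wild type 1, 5 without wild type 3 and 4 without TGFB KO 1, and the 0 of the second became 1 without TGFB KO 3 or IFNko TGFB1 KO 2.

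Nos2 shares its substrate with the arginases. Of 18 genes of arginine and nitric oxide metabolism, 5 rose and 3 fell in TGFB KO against wild type (median 0.08). The shares of all genes were 12.2% higher and 11.9% lower. Arg2, a mitochondrial arginase, rose by 3.02 ± 0.27 (limma adjusted p = 1.91e-05) and differed by -0.05 ± 0.27 in IFNko TGFB1 KO against TGFB KO (adjusted p = 0.943). The arginine transporter genes Slc7a2 and Slc7a7 rose by 1.42 ± 0.24 and 1.42 ± 0.22. Gch1, which starts the synthesis of the cofactor tetrahydrobiopterin, rose by 0.66 ± 0.19, and Gchfr, its regulator, fell by 1.98 ± 0.29. Arg1 was the other gene that rose, and Ddah1 and Pts also fell. These 8 calls became 5 without wild type 1, without wild type 2 or without TGFB KO 3. In IFNko TGFB1 KO against TGFB KO 1 gene passed, Asl, the gene of argininosuccinate lyase (-1.52 ± 0.38, limma adjusted p = 0.0419). Its call was lost in 10 of 12 fits without 1 array, with adjusted p of 0.0509 to 0.147. Of all genes, 2.82% were lower in this comparison. The other nitric oxide synthase genes, Nos1 and Nos3, differed by 0.16 ± 0.49 and -0.07 ± 0.16 in TGFB KO against wild type.

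Of 10 tested channel genes read beside Calhm6, 5 rose and 2 fell in TGFB KO against wild type (median 0.86). The shares of all genes were 12.2% higher and 11.9% lower. Calhm2, the 1 other family member tested, rose by 1.09 ± 0.27 (limma adjusted p = 0.0126) and differed by -0.16 ± 0.27 in IFNko TGFB1 KO against TGFB KO (adjusted p = 0.789). Calhm4 and Calhm5 lay below the filter. Gja1, a connexin gene, rose by 1.84 ± 0.21, and P2rx7, a receptor gated by ATP, rose by 1.55 ± 0.30. Lrrc8c and P2rx4 also rose, and Gjb1 and Lrrc8d fell. In the second comparison Gjb2, another connexin gene, was the 1 call (-1.08 ± 0.25, limma adjusted p = 0.0286), and it was lost without TGFB KO 1 (0.0823) or TGFB KO 2 (0.113).

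Products of Acod1, Nos2 and Calhm6 are known from activated macrophages, so activation genes were counted. Of 19 genes of classical activation tested, 16 rose in TGFB KO against wild type (median 1.95) and 16 rose in IFNko TGFB1 KO against INFko TGFB+. Against TGFB KO, IFNko TGFB1 KO livers had 4 of 19 that fell and 0 that rose (median -0.34). These were Ptgs2, the inducible cyclooxygenase gene (-2.34 ± 0.38, limma adjusted p = 0.00468), the cytokine gene Il1b (-1.52 ± 0.26), Slc11a1, a metal transporter of phagosomes (-1.25 ± 0.24), and the Fc receptor gene Fcgr1 (-1.32 ± 0.29). The 4 became 2 without TGFB KO 3, and the call of Fcgr1 was lost without TGFB KO 1, TGFB KO 3, IFNko TGFB1 KO 1 or IFNko TGFB1 KO 3 (adjusted p of 0.059 to 0.0815). Of 11 genes of alternative activation 7 rose in TGFB KO against wild type (4 without wild type 2 or TGFB KO 3), among them Tgm2 (2.14 ± 0.19), the gene of a transglutaminase. In the second comparison Tgm2 fell by 1.03 ± 0.19, Pdcd1lg2 and Ccl24 also fell and Retnla rose, and these 4 calls became 1 or 2 without TGFB KO 1, 2 or 3, INFko TGFB+ 1 or 3, or IFNko TGFB1 KO 1 or 3. The call of Ccl24 was lost in 11 of 12 fits without 1 array (adjusted p of 0.057 to 0.112), that of Retnla in 5 (up to 0.0971) and that of Pdcd1lg2 in 4 (up to 0.0899).

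Of 19 genes of the NF-kappaB and TNF response, 15 rose in TGFB KO against wild type (median 1.53). Icam1, an adhesion molecule gene, rose by 2.00 ± 0.18, and the neutrophil chemokine gene Cxcl2 rose by 3.84 ± 0.45. Of the same genes, 2 fell and 0 rose in IFNko TGFB1 KO against TGFB KO (median -0.29), where 2.82% of all genes were lower. Cxcl2 fell by 2.95 ± 0.45 (limma adjusted p = 0.00325), and it was called in each of the 12 fits without 1 array. The other was Tnfaip2 (-1.16 ± 0.30, adjusted p = 0.0483), which was lost in 11 of those fits (adjusted p of 0.0538 to 0.173).

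**Figure D4:**
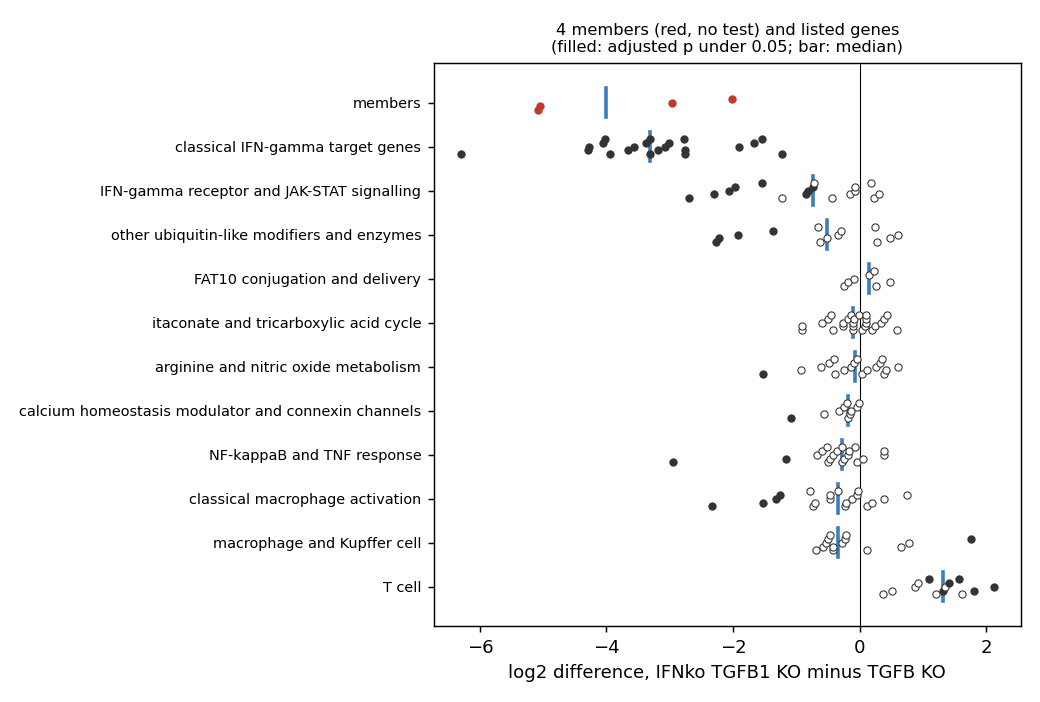
Log2 difference of IFNko TGFB1 KO minus TGFB KO (horizontal) for the 4 members (red, no test) and for the tested genes of 9 pathway lists and 2 marker lists; filled points passed a limma adjusted p under 0.05 and a blue bar is the list median. The members lie between -5.08 and -2.02, the medians are -3.31 for the interferon gamma target genes, 0.14 for the FAT10 list and -0.35 for the macrophage and Kupffer cell markers.

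Markers of cell types were read on the same arrays, and their part in the members' differences was not tested. Of 14 macrophage and Kupffer cell markers 13 rose in TGFB KO against wild type, and their summed signal was 52332 to 55809 per array against 8571 to 10587 in wild type. That sum was 38919 to 55250 in IFNko TGFB1 KO, against 8675 to 8718 in INFko TGFB+, and all 14 rose. Between the livers lacking both genes and TGFB KO, 0 of the 14 fell and 1 rose, Folr2 (1.76 ± 0.22, limma adjusted p = 0.000896), with a median of -0.35, and 9 had an unadjusted p under 0.05. There, 2 markers passed without wild type 3 or without IFNko TGFB1 KO 2. No tested marker of any list was at a signal of 0.

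T cell and natural killer cell markers, those of the sources of interferon gamma, were higher in both groups without Tgfb1. Of 13 T cell markers, 12 rose in TGFB KO against wild type, where the sum was 1171 to 1517 per array against 214 to 323. The sum was 3050 to 5382 in IFNko TGFB1 KO, against 211 to 368 in INFko TGFB+, where 13 of 13 rose. Against TGFB KO 6 of 13 rose in IFNko TGFB1 KO, among them Cd2 (2.12 ± 0.28) and Cd3g (1.57 ± 0.28), and 3, 2 and 3 were called without TGFB KO 1, 2 and 3. Of 7 natural killer cell markers, Tyrobp and Gzmb among them, 6 rose in TGFB KO against wild type, with sums of 6381 to 8707 against 745 to 1001. Such sums are not counts of natural killer cells, and the cells that gave the signal of Tyrobp and Gzmb were not determined. The sums were 5836 to 9535 in IFNko TGFB1 KO, and 1 of 7 rose against TGFB KO, Klrd1, or 2 without wild type 1, wild type 3 or TGFB KO 3.

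The remaining marker lists were given by their calls in TGFB KO against wild type and in IFNko TGFB1 KO against TGFB KO. The shares of all genes were 12.2% higher and 11.9% lower in the former, and 2.54% and 2.82% in the latter. Of 13 neutrophil and inflammatory monocyte markers 9 rose (5 without wild type 3) and then 0 passed, of which 4 had an unadjusted p under 0.05 in limma (1 passed without TGFB KO 3 and 2 without IFNko TGFB1 KO 2). Of 7 dendritic cell markers 3 rose (Fscn1, Itgax and Batf3) and then 0 passed, at 0 with an unadjusted p under 0.05. Of 9 B cell markers 0 passed in limma, 3 with an unadjusted p under 0.05, and then 1 rose, Cd79b, a call lost without any 1 of 7 arrays, with 2 calls without wild type 3; the 0 of the first comparison became 1 without wild type 2 or 3, TGFB KO 3 or IFNko TGFB1 KO 1 or 2. Of 15 hepatocyte markers 1 fell, Cyp2e1 (0 without TGFB KO 1, 4 without IFNko TGFB1 KO 2 and 2 without IFNko TGFB1 KO 3), and then 0 passed (1 without IFNko TGFB1 KO 3), 3 with an unadjusted p under 0.05 in limma. Of the 15, 6 fell in IFNko TGFB1 KO against INFko TGFB+ (median -0.67), or 3 without any 1 of the INFko TGFB+ arrays, and the summed signals of each group without Tgfb1, given above, lay below those of the matching group with it. Of 12 endothelial markers 3 rose (Lyve1, Stab1 and Pecam1) and 2 fell (Ptprb and Clec4g), together 3 without wild type 2, wild type 3 or TGFB KO 1 and 2 without TGFB KO 2, and then Ptprb and Clec4g rose, or 1 gene without any 1 of the TGFB KO, INFko TGFB+ and IFNko TGFB1 KO arrays. Of 10 stellate cell and fibroblast markers 3 fell (Reln, Lrat and Lum) and then 6 rose, these 3 among them, with sums of 12096 to 14609 in TGFB KO and 22180 to 31112 in IFNko TGFB1 KO, against 17074 to 19558 in wild type. The members' mean signals in IFNko TGFB1 KO were 1.67% to 13.2% of those in TGFB KO. The summed signals of the macrophage markers were 38919 to 55250 in IFNko TGFB1 KO and 52332 to 55809 in TGFB KO. The median of these markers was -0.35 (log2) in that comparison, and 9 of 14 had an unadjusted p under 0.05 in limma. The part of macrophage numbers in the members' differences was not tested.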

How the data were processed

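The deposited values are intensity, a linear signal per probe set of an Affymetrix-type oligonucleotide array, and the submitters give Trizol extraction and one-cycle biotin labelling per the labels' protocols. From the values, each array had been scaled to 1 trimmed mean (2% left off each end) before deposit. No source used here gives the signal algorithm, and present or absent calls were not analysed here. Of 45101 probe sets 34958 have 1 gene symbol, 932 several and 9211 none listed, and symbols were updated through gene identifiers with a RefSeq table.

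After adding 16, log2 values of the 12 arrays were quantile-normalized. The 64 control probe sets and those with a mean under the 40th percentile were left out, and 1 probe set per gene was kept. Groups were compared with limma 3.58.1 in R 4.3.3 (lmFit and eBayes over all 12 arrays, 8 residual and 3.44 prior degrees of freedom), with two-sided p-values and Benjamini-Hochberg adjustment over 12760 genes at 0.05. SEs and p-values rest on 3 mice a group, and the number of arrays limits the precision. Nos2 was fitted as an added row and took no rank. The procedure was tested on simulated data.

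The members, the 11 pathway and 9 marker lists (322 genes, 273 tested) and the tests were chosen with earlier results of these data known. Genes named are the members, Tgfb1 and Ifng, the 5 genes most like each member, and in each list up to 4 genes (markers 3) with the smallest p, or any gene of the arginine, FAT10 and channel lists; the other genes behind a count of 5 or fewer were named after their values were seen. Promoters came from the RefSeq table of GRCm38.p6. The alternatives were the scaling, the pseudocount, the filter, averaging a gene's probe sets, the replicate number as a block, the groups compared only and the loss of each array in turn.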

Additional observations from a re-analysis of the deposited data

Results flagged for a closer look

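For 13 named genes the effect of Tgfb1 loss differed between livers without and with Ifng, by limma's test of that difference over all genes, and the values are log2 differences of effects. Among genes of the interferon gamma lists these were Gbp2 (-3.42), Gbp2b (-3.63), Igtp (-3.72), Irgm1 (-3.10), Irf1 (-1.85) and Irf8 (-1.95). Igtp was 2.99 higher in TGFB KO than in wild type and differed by -0.73 in IFNko TGFB1 KO against INFko TGFB+. Herc6 (-2.46) and Usp18 (-2.41), which act on the modifier ISG15, had the same sign. The cytokine gene Il1b (-1.82, adjusted p = 0.0421) was close to the threshold, and its call was lost in 10 of 12 fits without 1 array, with adjusted p up to 0.128. The T cell receptor gene Cd3g differed in the other direction (2.01, adjusted p = 0.0416) and was lost in 9 of 12 such fits. The stellate cell and fibroblast genes Lrat (2.19), Lum (2.94) and Reln (2.31) fell in TGFB KO against wild type. In IFNko TGFB1 KO against INFko TGFB+ Lrat and Lum rose, by 1.05 and 1.72, and Reln differed by 0.33 (limma adjusted p = 0.265). Ubd, Acod1 and Calhm6 were among the 12760 genes of that fit, but no p-value is given for the members. Beyond the medians and rank correlations of the arrays, groups of 3 were not examined for outlying samples.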

How the results depend on the processing

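In the comparisons fitted, the signs of the members' log2 differences held under each alternative run, with exceptions for Nos2 only. These were IFNko TGFB1 KO against INFko TGFB+ (20 of 21 alternatives) and INFko TGFB+ against wild type (19 of 21). The size followed the pseudocount, which weighs most on dim values. With a pseudocount of 1, TGFB KO differed from wild type by 6.57 for Acod1, 6.16 for Ubd, 5.75 for Calhm6 and 4.18 for Nos2, and IFNko TGFB1 KO from TGFB KO by -6.37 for Acod1 and -3.72 for Nos2. With 64, the first were 5.29 for Ubd, 3.55 for Acod1, 3.68 for Calhm6 and 1.04 for Nos2, and the second -3.68 for Acod1 and -0.98 for Nos2. INFko TGFB+ differed from wild type by -1.72 (pseudocount 1) and -0.33 (pseudocount 64) for Acod1, and by -1.68 and -0.79 for Ubd. The difference of effects of Nos2 was -3.58 and -0.97. Over all genes the difference of effects was called for 57 genes (pseudocount 1) and 212 (pseudocount 64), against 111. With only the groups compared, IFNko TGFB1 KO against TGFB KO gave 213 genes against 684.

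Leaving out 1 array at a time gave 5.57 to 6.50 for Ubd, 4.53 to 5.61 for Acod1 and 4.15 to 5.10 for Calhm6 in TGFB KO against wild type. The genes called ranged from 320 to 728 in IFNko TGFB1 KO against TGFB KO, 0 to 2 in INFko TGFB+ against wild type and 46 to 164 for the difference of effects. These fits have fewer arrays.

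With the replicate number as a block the counts were 3051, 571, 3277, 0 and 84, for TGFB KO against wild type, then IFNko TGFB1 KO against TGFB KO and against INFko TGFB+, then INFko TGFB+ against wild type and the difference of effects. The labels name no pairing of the mice, and the main fit used none. Of 18 same-numbered pairs of deviations, 4 correlated above 0.1, with a range of -0.08 to 0.34. Pairs with other numbers ranged from -0.23 to 0.20, and 6 of 12 samples correlated best with their own number. These values cannot exclude a pairing. The endothelial marker Clec4g turned from a fall to 0.042 (TGFB KO against wild type) when its probe sets were averaged; the cause was not tested.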
